A study of Mus musculus with 19 samples.

Results

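Broad Cbx7 domains are the long stretches of mouse chromatin over which Cbx7, a subunit of Polycomb repressive complex 1 (PRC1), formed 1 continuous ChIP-seq peak in embryonic stem cells (ESC). They were chosen by width and overlap, as peaks of the control ESC Cbx7 list that are at least 3000 bp wide and share at least 1 bp with 1 or more of the 3 ESC lists of Ring1B, the catalytic subunit of the same complex. Of 12454 Cbx7 peaks, 770 met this rule. They made up 6.18% of the peaks and 33.7% of the bases under Cbx7 (4.61 of 13.7 Mb). Width and ESC Ring1B therefore describe how the domains were picked, and no test was put on either.

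The study asked how Nup153, a protein of the nuclear pore basket, takes part in gene silencing and pluripotency. All ESC libraries came from the E14 line, which was kept on irradiated embryonic fibroblasts as feeder cells. Cbx7, Ring1B, Oct4 and RNA were profiled in ESC that carried a lentiviral non-target hairpin (shCtrl, called control here). Ring1B and RNA were also profiled in ESC that carried either of 2 hairpins against Nup153 (shNup153 #2 and #4, called hairpin 2 and hairpin 4), and Oct4 in hairpin 2 cells. Every hairpin line, control included, was selected with puromycin for at least 4 days before harvest, and the labels do not say whether clones were picked. Neural progenitors (NeuP) carried no hairpin. They were derived from ESC through embryoid bodies and Noggin and then grown with FGF2 and EGF, and the labels do not name their ESC line. Nup153 and Oct4 were also mapped by DamID, in which a bacterial DNA adenine methylase fused to the protein marks GATC sites near it, in E14 cells that carried the fusion and no hairpin, with 2 replicates per protein and 2 for a GFP control.

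PRC1 places ubiquitin on histone H2A and compacts chromatin. Its canonical form is brought in by Cbx proteins, which bind the trimethylated lysine 27 of histone H3 that the partner complex PRC2 deposits. Cbx7 is the main Cbx protein of mouse ESC. In these cells canonical PRC1 lies over CpG-rich promoters of developmental regulators, most of all homeobox genes, whose RNA is kept low until a lineage is chosen.

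A promoter from each of the 6 widest domains is printed because the sequence type on which PRC1 is known to sit, dense in CpG, can be read from them directly. Each is the 250 bases upstream of the RefSeq start, on the strand of the gene, in build GRCm38.p6, whereas the peak lists use mm9. Capitals mark every CG. Hoxa6 (minus strand, chr6:52208673-52208922) starts in a domain of 36505 bp, Hoxb8 (plus, chr11:96281655-96281904) in 1 of 27184 bp and Pax2 (plus, chr19:44746351-44746600) in 1 of 23403 bp. Nkx2-1 (minus, chr12:56536909-56537158), Uncx (plus, chr5:139543648-139543897) and Dlx1 (plus, chr2:71529195-71529444) start in domains of 21263, 20985 and 20649 bp.
Hoxa6: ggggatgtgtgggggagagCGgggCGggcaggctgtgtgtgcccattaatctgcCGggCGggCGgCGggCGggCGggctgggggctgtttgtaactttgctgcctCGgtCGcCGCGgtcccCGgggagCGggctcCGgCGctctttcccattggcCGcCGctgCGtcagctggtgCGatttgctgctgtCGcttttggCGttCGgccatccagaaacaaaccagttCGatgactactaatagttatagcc
Hoxb8: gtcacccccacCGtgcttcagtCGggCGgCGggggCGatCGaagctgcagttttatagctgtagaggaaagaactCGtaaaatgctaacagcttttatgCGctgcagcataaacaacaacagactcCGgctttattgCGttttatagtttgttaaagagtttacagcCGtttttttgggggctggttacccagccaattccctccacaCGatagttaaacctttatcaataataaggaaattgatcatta
Pax2: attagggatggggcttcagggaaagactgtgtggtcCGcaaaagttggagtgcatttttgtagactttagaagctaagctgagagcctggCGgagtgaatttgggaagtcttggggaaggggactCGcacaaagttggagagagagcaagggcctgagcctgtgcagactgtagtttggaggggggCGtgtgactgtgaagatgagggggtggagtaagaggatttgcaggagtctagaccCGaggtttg
Nkx2-1: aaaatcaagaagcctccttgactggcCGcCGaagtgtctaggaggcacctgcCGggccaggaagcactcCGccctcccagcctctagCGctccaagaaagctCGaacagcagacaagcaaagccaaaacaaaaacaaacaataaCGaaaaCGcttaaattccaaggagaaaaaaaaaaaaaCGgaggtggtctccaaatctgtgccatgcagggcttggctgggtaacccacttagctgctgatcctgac
Uncx: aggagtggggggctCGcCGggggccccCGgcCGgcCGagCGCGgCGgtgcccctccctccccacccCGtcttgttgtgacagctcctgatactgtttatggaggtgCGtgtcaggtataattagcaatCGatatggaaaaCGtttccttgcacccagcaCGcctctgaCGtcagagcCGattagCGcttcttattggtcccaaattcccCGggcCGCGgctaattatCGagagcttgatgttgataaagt
Dlx1: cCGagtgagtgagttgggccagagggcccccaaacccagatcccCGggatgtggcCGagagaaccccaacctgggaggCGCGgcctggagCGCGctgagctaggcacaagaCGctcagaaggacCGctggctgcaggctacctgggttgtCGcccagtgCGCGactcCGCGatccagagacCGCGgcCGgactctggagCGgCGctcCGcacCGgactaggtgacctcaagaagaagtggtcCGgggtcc

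The Hoxa6 promoter held 24 CG in 250 bases, and 11.98% of the 32851 promoters in the table held as many. The Dlx1 promoter held 22 (14.8% of promoters held as many), Uncx 20 (17.9%), Hoxb8 12 (33.5%) and Nkx2-1 9 (40.3%). The first of the 3 Pax2 starts in the table held only 5 (55.6%), below the median of 6 over all promoters, while the other Pax2 starts held 20 and 25. The GATC motif, which reads the same on both strands and is the only site DamID can mark, occurred 2 times in each of the Hoxb8 and Dlx1 windows, once in Nkx2-1 and not in Hoxa6, Uncx or the printed Pax2 window. It was in 41.9% of all promoters. Only 350 of 549 genes that start in a domain (63.8%) matched the promoter table, so a comparison of CG content over the whole set would be void and was not made.

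Some domains in the HOX clusters also hold microRNA genes, short RNAs that silence messages through their seed, bases 2 to 8. Of 11 miRNA genes that start in a domain, 10 were found in the RefSeq miRNA table. Those of the HOX clusters fall into 2 seed groups, which is why they are printed, 5′ to 3′ with the seed in capitals.
miR-10a-5p: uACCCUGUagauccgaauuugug
miR-10b-5p: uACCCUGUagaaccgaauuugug
miR-196a-5p: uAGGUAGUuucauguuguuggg
miR-196b-5p: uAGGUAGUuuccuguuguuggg
miR-9-5p: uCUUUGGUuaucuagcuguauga

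Mir10a lies in the HOXB cluster and Mir10b in the HOXD cluster, and their 5p products share 1 seed. Mir196a-2 in HOXC and Mir196b in the widest HOXA domain share the other. The miR-9 sequence is made from 2 loci in domains, Mir9-1 and Mir9-3, of which Mir9-1 was read at 3.89 and 1.40 FPKM in the NeuP replicates and at 0 in each of the 3 ESC libraries. FPKM is a fragment count corrected for transcript length and library depth. The libraries were made from polyadenylated RNA, so these are precursor reads. Mature miRNA was not measured, and 8 of the 11 loci had no read in any library.

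Depth and cell identity bear on each value below. The ChIP libraries held 22.5 M tags (M, mega) for Cbx7, 4.99 for Ring1B in control ESC, 30.8 in hairpin 2, 9.95 in hairpin 4 and 33.2 in NeuP. RNA depth, recovered from the smallest steps of the FPKM values, was 24.3 to 32.2 M fragments per library. Nup153 itself read 39.4 FPKM in the control, 20.9 and 17.4 in hairpins 2 and 4, and 12.8 and 29.1 in NeuP. Of 25 pluripotency genes, 24 were lower in both NeuP libraries than in every ESC library, and of 26 neural progenitor genes 25 were higher. Over all 24016 genes, 8322 were lower and 5221 higher by the same measure. Summed over 22 feeder fibroblast markers (Vim among them, which neural progenitors also express) FPKM was 304 to 339 in ESC and 1031 and 694 in NeuP. The defining fibroblast collagen Col1a1 was at 1.82 to 4.77 in ESC and 0.375 and 1.53 in NeuP, whereas Col3a1 was at 0.029 to 0.192 and 24.9 and 46.1. Of the 22, 12 were higher and 9 lower in both NeuP libraries than in every ESC library, and their part in the NeuP results was not tested. Cbx7 RNA was 38.1 to 49.1 FPKM in ESC and 2.07 and 1.84 in NeuP, and Rnf2, which encodes Ring1B, was 54.6 to 58.8 in ESC and 30.7 and 38.4 in NeuP. Labels do not say whether RNA replicates came from separate cultures, so p-values measure only the spread between these libraries. In bulk RNA, fewer cells that express a gene and less RNA per cell cannot be told apart.

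The 10 widest domains lay over loci of developmental transcription factors in 9 cases. The widest ran over Hoxa10, Hoxa9, Hoxa7, Hoxa6 and Hoxa3 for 36505 bp (mm9, chr6:52154624-52191128). The second ran over Hoxb5 to Hoxb8 for 27184 bp (chr11:96139988-96167171). HOX genes set the identity of segments along the body axis. Then came Pax2 (23403 bp, kidney and hindbrain), Nkx2-1 (21263 bp, lung, thyroid and forebrain), Uncx (20985 bp, vertebrae), Dlx1 with Dlx2 (20649 bp, interneurons), Six3 (20472 bp, eye and forebrain), Pax6 (19501 bp, eye and cortex) and Gata3 (19236 bp, T cells and ear). The remaining domain, of 19636 bp on chromosome 6 (chr6:51118065-51137700), held no transcript of the table, and the nearest start was that of Mir148a at 82209 bp.

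Most domains were far shorter, with a median of 4434 bp and quartiles of 3584 and 6945 bp. At the threshold, the narrowest members were those at Cdx4 (3000 bp), near Lbx1 (3001 bp) and at 2900079G21Rik (3001 bp). The widest Cbx7 peaks just outside it lay at Ly6h (2999 bp), Has2 (2998 bp) and Sntb1 (2996 bp). The cutoff thus falls in a run of peaks of nearly equal width. Another 8 Cbx7 peaks were at least 3 kb wide but had no ESC Ring1B peak, the widest of them 6628 bp on the mitochondrial chromosome. A single member lay on the mitochondrial chromosome and 1 on unplaced sequence.

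Domains often lay side by side. When those within 20 kb of each other were joined, 234 domains fell into 98 clusters. The joined cluster at HOXD held 8 domains over 103807 bp, that at HOXC 7 over 80533 bp, at HOXB 6 over 76669 bp and at HOXA 3 over 63175 bp. The Hoxa2 domain of 19174 bp lay more than 20 kb from that HOXA cluster and was not joined to it. Outside HOX, 4 domains each lay around Nr2f2, a nuclear receptor of vein identity, around Zic1 and Zic4, zinc finger genes of the cerebellum, and around Bcor, which encodes a subunit of a variant PRC1. Another 4 lay near Lbx1 over 20959 bp of chromosome 19, with no transcript start inside them.

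A transcript start lay inside 479 domains (62.2%, Wilson 95% interval 58.7 to 65.6, counting error only), with 549 genes in all, of which 470 were protein coding. The share was 56.2% in domains of 3 to 4 kb and 84.0% in those of 10 kb or wider. Among the 4919 narrower Cbx7 peaks with ESC Ring1B (median width 679 bp), 11.7% held a start. Wider peaks have more room for one, and no adjustment for width was made. Starts lay toward the middle, with 366 of 549 (66.7%) in the central 50% of their domain. Of the 291 domains without a start, 149 overlapped the body of a gene and 142 no gene. Their median distance to the nearest start was 5322 bp, and 103 lay within 2 kb of one.

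Transcription factor genes were frequent at the domains. Lists of 15 transcription factor families, 9 of them homeobox families, held 322 protein-coding genes, of which 163 (50.6%) start in a domain, against 2.28% of the 20617 genes of the table not typed as noncoding. Another 8 symbols that fit a family are antisense RNAs such as Lhx1os and were left out of these counts. Homeobox genes reached 104 of 173 (60.1%). All 6 DLX genes, 10 of 12 LIM homeobox genes, 7 of 9 PAX genes, 26 of 39 HOX genes and 5 of 6 GATA genes start in a domain. Counts were 8 of 17 for T-box, 8 of 19 for SOX, 22 of 55 for bHLH lineage, 14 of 44 for forkhead, 2 of 6 for IRX and for the sine oculis family, 2 of 8 for ZIC and GLI and 2 of 15 for POU genes. Of the 470 coding genes that start in a domain 34.7% were in these families, and of 539 at the narrower Cbx7 peaks with ESC Ring1B 3.34%. These are descriptions of 1 Cbx7 library with no test.

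Among signalling families, 10 of 28 WNT ligands and antagonists, 5 of 30 BMP and GDF genes, 4 of 22 FGF ligands and 5 of 60 axon guidance genes start in a domain. Of marker lists, 11 of 26 neural progenitor, 7 of 13 endoderm, 5 of 11 mesoderm and 1 of 13 neuron genes start in a domain. Only Esrrb did so among 25 pluripotency genes. None of 22 feeder, 20 PRC1 or 11 PRC2 genes did.

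Ring1B covered the domains to very different extents in the 4 libraries. Hairpin 2 had a peak in 768 of 770 domains and covered 84.1% of their bases. Hairpin 4 had one in 574 (74.5%) and covered 25.9%, and control ESC in 492 (63.9%) and 18.4%. NeuP, the deepest library, had one in 276 (35.8%, 32.5 to 39.3) and covered 11.003%. The 3 ESC values helped to choose the domains and stand in the order of depth, with a calling threshold of 1.40 tags per M tags sequenced in the control, 0.905 in hairpin 4 and 0.585 in hairpin 2. Each list came from 1 library, so depth and hairpin cannot be told apart. The NeuP list had a threshold of 0.572 tags per M, next to that of hairpin 2, and was called against the ESC IgG input.

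All 3 ESC lists had a peak in 420 domains. Another 224 were in 2 lists, of which 71 were in the control and hairpin 2 and the rest in both hairpins. Hairpin 2 alone put Ring1B in 124 domains, which are members through that deep library. The control alone accounted for 1 domain, the mitochondrial one, and hairpin 4 alone for 1.

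**Figure D1:**
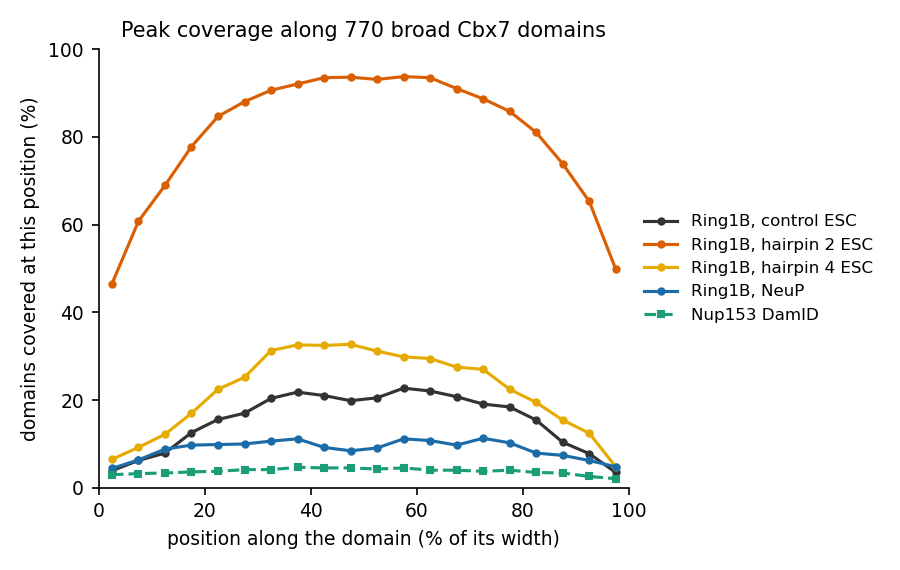
Share of the 770 domains covered by a peak (y axis, %) in each of 20 equal bins along the domain (x axis, % of its width), for Ring1B in 4 libraries and Nup153 DamID. Hairpin 2 ran from 48.2% in the end bins to 93.4% in the middle, whereas NeuP stayed between 4.42% and 11.3% in every bin.

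Along the domain, Ring1B in ESC was less frequent at the ends than inside, as the plot of coverage along the domain shows. Control Ring1B covered 3.70% of domains in the end bins of 20 and 20.2% in the 2 middle bins, with a highest value of 22.7% in the bin 12th from the left. Hairpin 4 covered 5.65% at the ends and 31.9% in the middle. NeuP covered 4.61% at the ends and 8.77% in the middle, below its highest values of 11.2% and 11.3% on either side.

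NeuP Ring1B was found more often in wider domains. It overlapped 18.4% of domains of 3 to 4 kb, 32.8% of 4 to 6 kb, 49.3% of 6 to 10 kb and 77.7% of those of 10 kb or wider. A wide region is more easily touched, so the central 1 kb was examined as well, where the shares were 11.4, 20.1, 23.6 and 26.6%. Bases covered ran from 5.36% to 16.3% over the same width classes. Across the 770 domains, the Spearman correlation of width with the percent covered by NeuP Ring1B was 0.348, and 0.361 for control ESC, 0.340 for hairpin 2 and 0.369 for hairpin 4. The domains share these libraries and are not replicates, so this is a description.

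**Figure D2:**
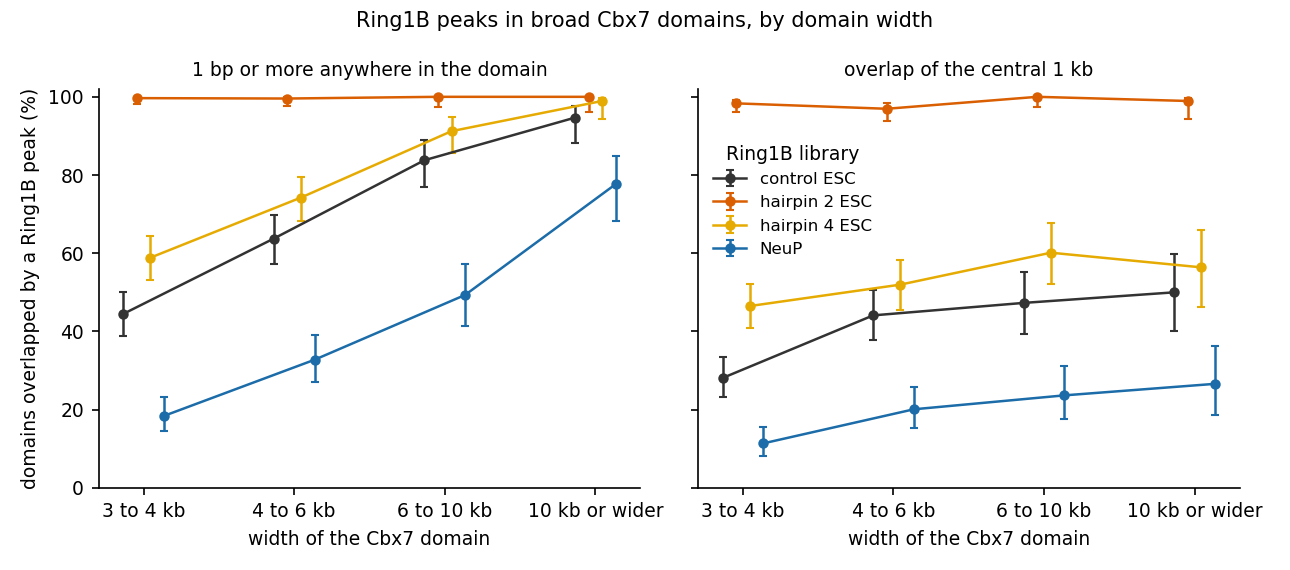
Percent of domains overlapped by a Ring1B peak (y axis) in 4 classes of domain width (x axis), anywhere in the domain (left) or in its central 1 kb (right), with Wilson 95% intervals. The NeuP share runs from 18.4% to 77.7% on the left and from 11.4% to 26.6% on the right, while hairpin 2 lies at 96.9% or more in each class of both panels.

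Domains that carried control ESC Ring1B had it in NeuP in 223 of 492 cases (45.3%, 41.0 to 49.7), against 53 of 278 (19.1%, 14.9 to 24.1) of those without it. Control Ring1B is part of the rule that chose the domains and is more frequent in wider ones, so this is a description. In 33 domains NeuP Ring1B covered at least 50% of the bases. Otx2, a head and forebrain homeobox gene, had 7467 of 7503 bp covered, Hoxa11 9642 of 13358 bp and Sim1, a hypothalamic bHLH gene, 10591 of 15976 bp. The widest HOXA domain had 11374 of 36505 bp and the domain near Mir148a 10019 of 19636 bp. Pax2, by contrast, had none in 23403 bp. Otx2, Hoxa11 and Sim1 were singled out after their values were seen.

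**Figure D3:**
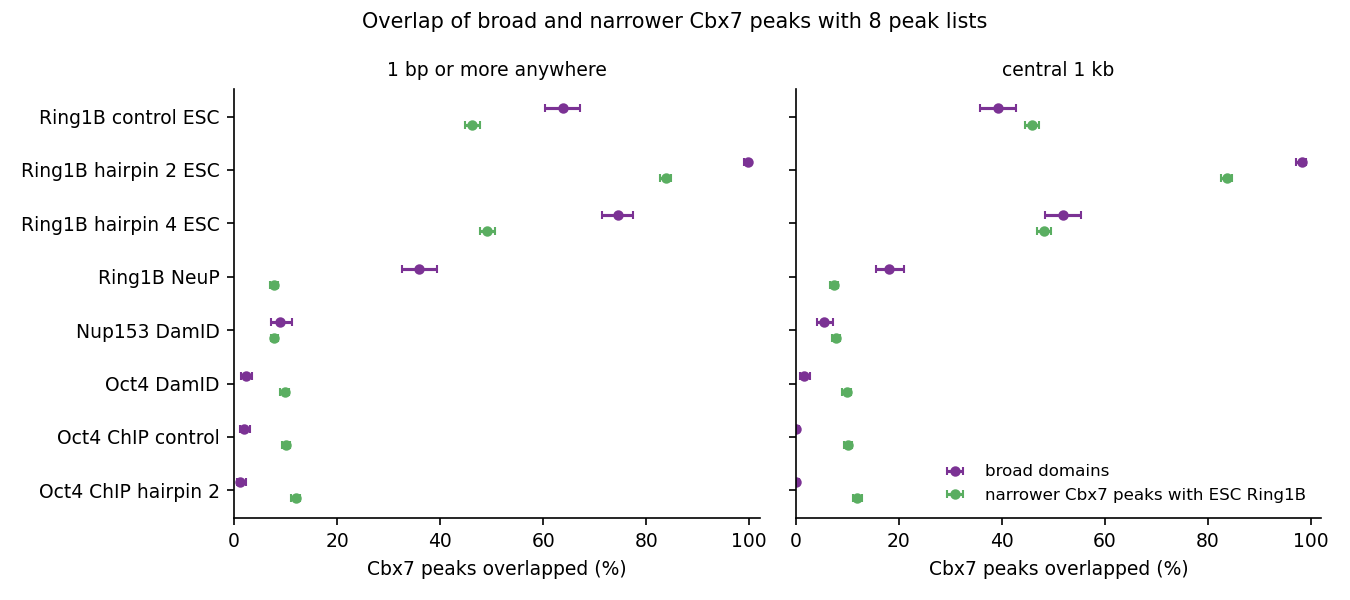
Percent of Cbx7 peaks overlapped by each of 8 peak lists (x axis), for 770 broad domains and 4919 narrower Cbx7 peaks with ESC Ring1B, anywhere in the peak (left) or in the 1 kb around its centre (right), with Wilson 95% intervals. NeuP Ring1B lies higher in broad domains in both panels, and Oct4 lower.

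Compared over the same central 1 kb, NeuP Ring1B overlapped 18.2% of domains (15.6 to 21.1) and 7.44% of the narrower Cbx7 peaks with ESC Ring1B (6.74 to 8.21). Oct4, the pluripotency factor encoded by Pou5f1, was nearly missing from the domain centres. Its control ChIP peaks touched the central 1 kb in 0.13% of domains (1 domain) and in 10.1% of narrower peaks (9.33 to 11.02). Anywhere in the peak the shares were 1.82% (14 domains) and 10.0%. In the 6765 Cbx7 peaks without ESC Ring1B they were 0.0739% in the central 1 kb and 0.0591% anywhere. The near absence of Oct4 is thus not particular to the broad domains. With 1 library per list, no test across replicates could be made.

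The 14 domains with control Oct4 included those of Hoxa2, Tfap2a and Pax9, which pattern the face and neural crest, Sox21, a neural SOX gene, and Id3, a target of BMP signals. In hairpin 2 cells 9 domains had Oct4, 7 of them the same as in the control. Oct4 DamID reached 17 domains (2.21%), against 9.78% of narrower peaks with ESC Ring1B and 1.06% of Cbx7 peaks without it.

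Nup153 DamID overlapped 69 domains (8.96%, 7.14 to 11.2), near the 7.79% of narrower peaks. Over the central 1 kb the order was the reverse, with 5.45% and 7.81%. The widest domains with Nup153 were those of Six3 (5018 of 20472 bp), the region near Mir148a (2319 bp), Pax6 (2501 bp), Gata3 (2501 bp) and Tfap2a (2501 bp), and 2501 bp is the shortest segment in that list. Others lay at Foxa1, Sim1, Hoxd11 with Hoxd12, Hoxc11, Hoxc12, Hoxc6, Meis2, Neurod1 and the gamma protocadherins.

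Domains with Nup153 had Ring1B in NeuP in 53.6% of cases (42.0 to 64.9), against 34.1% (30.7 to 37.7) of the other 701. For control ESC Ring1B the shares were 79.7% and 62.3%. The domains with Nup153 were also wider, with a median of 5025 bp against 4414 bp, and the part of width in these shares was not tested. Oct4 DamID was present in 15 of 69 domains with Nup153 (21.7%) and in 2 of 701 without (0.285%). Both DamID lists were made with the same kind of GFP control, and the sources used here do not say how it was used.

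RNA of genes that start in a domain was low in all 5 libraries. The median FPKM was 0.065 in the control, 0.113 and 0.089 in hairpins 2 and 4, and 0.075 and 0.071 in NeuP, against 0.83 to 1.07 in ESC and 0.476 and 0.485 in NeuP over all 24016 genes. In the control library 61 of 549 genes (11.1%) reached 1 FPKM, and 48.7% of all genes did. In the NeuP replicates 29.7% and 27.9% of domain genes did so, against 46.2% and 46.6% of all genes. Narrower Cbx7 peaks with ESC Ring1B held the starts of 598 genes, with a control median of 0.13 FPKM. Of these, 23.4% reached 1 FPKM in the control and 30.6% and 30.8% in the NeuP replicates. In 37 domain genes no read was seen in any library.

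The 6 highest in the control library were Gnas (208 FPKM), a G protein subunit gene with several promoters, Esrrb (119), Pfdn4 (50.6), a chaperone subunit gene, Mest (42.0), an imprinted gene, Dll1 (15.4), a Notch ligand, and Npnt (10.1), a matrix protein gene. Their domains were 3364 to 4699 bp wide. The table holds 1 transcript per gene, so an RNA from another promoter of the same gene counts toward it. Mest was uneven in NeuP, with 130 and 953 FPKM in the 2 replicates.

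In NeuP against control ESC, 119 domain genes rose and 33 fell (limma on log2(FPKM + 1) over 13750 genes, Benjamini-Hochberg adjusted p under 0.05). Over all genes tested, 18.3% were called higher and 24.9% lower. Only 218 of the 549 domain genes passed the filter of 1 FPKM in at least 1 library, and 133 of them passed through NeuP alone, so they had to be higher there. Set over all genes whether tested or not, 21.7% of domain genes were called higher and 6.01% lower, against 10.5% and 14.2% of the 24016. The median change of the 549 was 0.00 on the log2 scale and 0 over all genes. The hairpin libraries supply part of the spread in the fit. The count of higher genes fell to 35 without hairpin 2 or without hairpin 4, and to 28 with only the control and NeuP libraries, while the lower genes numbered 32 to 34.

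**Figure D4:**
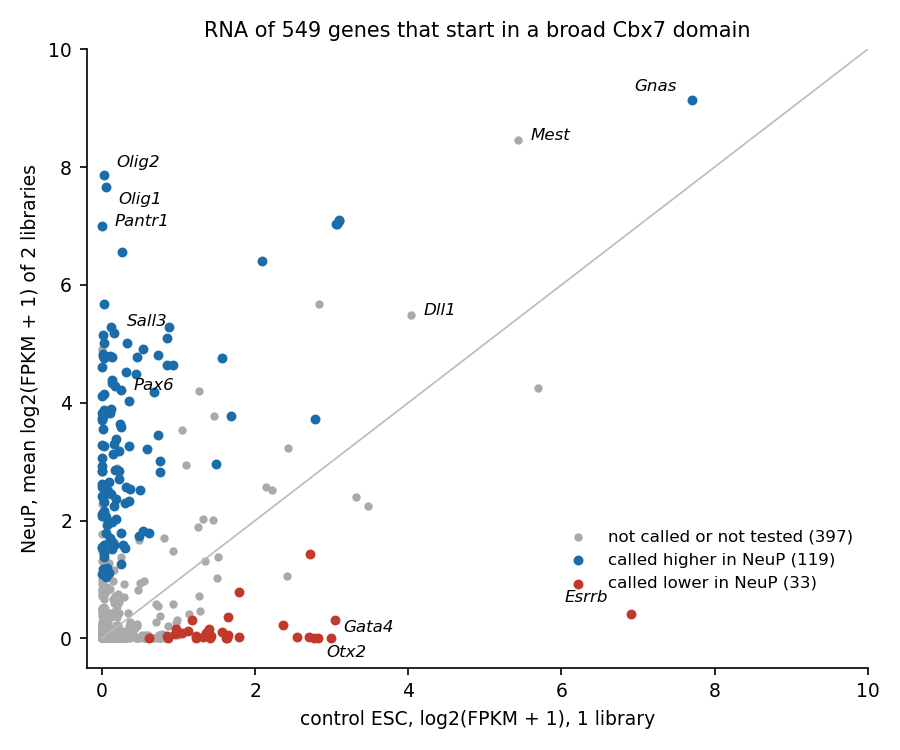
RNA level of the 549 domain genes in control ESC (x axis, log2(FPKM + 1), 1 library) and in NeuP (y axis, mean of 2 libraries), with the 119 genes called higher in blue and the 33 called lower in red. Most points lie near the origin, Olig2 and Olig1 stand at the upper left, and Esrrb is the red point at the far right.

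The largest rise was that of Olig2, a bHLH factor of motor neuron and oligodendrocyte precursors. It read 0.016 FPKM in the control, 0 and 0.21 in hairpins 2 and 4, and 201 and 265 in NeuP, and rose by 7.84 on the log2 scale (SE 0.27, limma adjusted p = 0.00238). NeuP Ring1B covered 7418 of the 14866 bp of its domain. Olig1, its neighbour, read 0.036 in the control, 0.059 and 0.199 in the hairpins, and 288 and 140 in NeuP. The noncoding Pantr1, next to the neural gene Pou3f3, read 0 in the control, 0.178 and 0.579 in the hairpins, and 120 and 135 in NeuP. In all 3 genes the NeuP and ESC values did not overlap, but they were picked as the largest rises, so this is no separate result. Both NeuP libraries were above every ESC library in 217 of the 549 domain genes and in 5221 of all 24016 genes.

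Behind them came Ntrk2, the BDNF receptor (0.197 FPKM in the control, 188 and 45.7 in NeuP), Tril, a co-receptor of innate immune signals in glia (0.015, then 83.6 and 29.8), Cdh13, a cadherin (0.087, then 65.8 and 21.7), and Spon1, a floor plate matrix protein (0.013, then 70.0 and 16.6). In these 4 the first NeuP library was well above the second. Sall3, a zinc finger gene (0.115, then 32.5 and 38.8), and Egr3, an early response gene (0.01, then 23.9 and 31.0), were even between the replicates. Pcdh10, a protocadherin, read 0.019, then 54.0 and 18.2. The NeuP calls of Olig1, Ntrk2, Tril, Cdh13, Spon1 and Pcdh10 were lost when either hairpin library was left out, with adjusted p from 0.0508 to 0.153 by limma.

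Of the 26 neural progenitor markers, 21 rose in NeuP, 9 of them among the 11 that start in a domain, so the share in domains is near that of the list. Meis1, a homeobox cofactor of HOX proteins, read 0.794 FPKM in the control, 1.14 and 1.07 in the hairpins, and 36.5 and 30.4 in NeuP (log2 change 4.26, SE 0.20, limma adjusted p = 0.00242). Nr2f2 read 0.168 in the control and 8.39 and 7.73 in NeuP. Pax6 read 0.186 in the control, 0.629 and 0.600 in the hairpins, and 29.0 and 10.4 in NeuP. Hes5, a Notch target, read 0 in the control and 84.5 and 9.52 in NeuP and did not pass the limma test (adjusted p = 0.0564), nor did Zbtb16 (limma adjusted p = 0.113). Among these markers, the calls of Pax6, Meis2, Pou3f2, Olig1 and Sox9 were lost without either hairpin library.

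In domains of 10 kb or wider, 15.9% of 113 genes were called higher in NeuP, and 24.6% of 175 genes in domains of 3 to 4 kb. Over all 24016 genes the share was 10.5%. Among genes tested the order was the reverse, 58.1% of 31 and 50.0% of 86, against 18.3% of all genes tested. Of these 31 and 86, 21 and 49 passed the filter through NeuP alone. None of the 26 HOX genes in domains reached 1 FPKM in the control, and the 4 that were tested passed the filter through the libraries in which they are high. Over all HOX genes, 12 were tested, 5 rose and 5 fell. Hoxa2, a hindbrain and branchial arch gene, read 0.245 FPKM in the control and 23.1 and 20.8 in NeuP (log2 change 4.20, SE 0.17, adjusted p = 0.00238 by limma). Hoxa3 read 0.684 in the control and 9.18 and 5.41 in NeuP. In the same domain, Hoxa6, Hoxa7, Hoxa9 and Hoxa10 stayed under 1 FPKM in every library, with a highest value of 0.942 for Hoxa7 in the first NeuP replicate. Hoxb2 and Hoxb3 rose by 1.38 and 1.15, to between 1.02 and 2.41 FPKM in NeuP. The calls of Hoxa3, Hoxb2 and Hoxb3 were lost without either hairpin library. No HOXC or HOXD gene in a domain was tested. NeuP Ring1B lay in the domains of 24 of the 26.

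The 6 DLX genes, whose domains were 4910 to 20649 bp wide, stayed below 1 FPKM in all libraries, and the highest value was 0.773 for Dlx3 in the control. In the PAX family Pax3, a neural crest and muscle factor, rose from 0.01 FPKM to 11.4 and 13.6 in NeuP (log2 change 3.74, SE 0.18, adjusted p = 0.00247 by limma). Pax1 and Pax2 stayed at 0.105 FPKM or less throughout, and Pax9 read 0.384 in the control and 1.38 and 0.321 in NeuP. Among SOX genes, Sox21 (0.831 in the control, 43.7 and 32.6 in NeuP), Sox3 (0.363, then 29.0 and 15.6) and Sox9 (0.276, then 29.9 and 7.66) rose, the last 2 only with both hairpin libraries in the fit. Sox14 and Otp were at 0 in all 5 libraries.

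Of 67 protocadherin genes tested 62 rose, and 7 of the 8 in domains did, a share near that of the family. Pcdh7 read 0.005 FPKM in the control and 10.2 and 11.4 in NeuP, and Pcdh17 0.004 and then 8.98 and 8.46. Pcdhga10, Pcdhga11, Pcdhgb6 and Pcdhgb7 share their last exons, and their values were nearly equal, 7.32 to 7.57 in the control and 95.8 to 183 in NeuP. Their reads cannot be told apart and they count as 1 signal, so 7 of 8 overstates the number of separate rises. Shared exons were not taken into account in the count of 62 of 67 either. Of 43 axon guidance genes tested, 14 rose and 10 fell. Those in domains that rose were Sema6a (0.659 in the control, 26.1 and 28.1 in NeuP), Ntn1 (0.378, then 38.2 and 18.0), Efna5 and Epha5, all below 1 FPKM in the control, so that they entered the test through other libraries. The calls of the 4 gamma protocadherins and of Ntn1, Efna5 and Epha5 were lost without either hairpin library.

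Of the 33 genes that fell, 1 is on the pluripotency list, 2 on the endoderm list and 3 on the mesoderm list. Esrrb, a nuclear receptor of naive pluripotency, read 119 FPKM in the control, 132 and 135 in hairpins 2 and 4, and 0.126 and 0.57 in NeuP (log2 change -6.50, SE 0.28, limma adjusted p = 0.00238). Its domain of 4051 bp had control Ring1B over 694 bp and none in NeuP. Gata4, an endoderm regulator, read 6.95 in the control, 10.6 and 13.1 in the hairpins, and 0 and 0.012 in NeuP. Otx2 read 5.83 in the control, 8.16 and 9.43 in the hairpins and 0 in both NeuP libraries, where Ring1B lay over nearly its whole domain. The ESC and NeuP values did not overlap for any of the 3, which were picked among the largest falls. Both NeuP libraries were below every ESC library in 180 of the 549 domain genes and in 8322 of all 24016 genes.

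All 4 GATA genes in domains that were tested fell, Gata4 by 2.98, Gata2 by 2.73, Gata6 by 2.53 and Gata3 by 1.29 on the log2 scale. Over all GATA genes, 5 were tested and 5 fell, so the fall is not particular to those in domains. Gata2, a blood and trophoblast factor, read 7.26 in the control and 0.163 and 0.331 in NeuP, and Gata6 4.83 and then 0.010 and 0.013. Gata5 was at 0.036 FPKM or less throughout. Epithelial regulators fell as well, namely Grhl2 (6.09 in the control, 0.006 and 0 in NeuP) and the splicing factor gene Esrp1 (5.53, then 0.016 and 0.021). Cdkn1c, an imprinted cell cycle inhibitor gene, fell from 2.47 to 0.016 and 0.022, Hand1 from 2.10 to 0 and 0, and Cpne7 from 4.13 to 0.013 and 0.362. The call of Cpne7 was lost without either hairpin library. Eomes and Lmx1b also fell, from 1.34 and 1.69 FPKM to 0.067 or less.

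Genes whose domain had a Ring1B peak in NeuP, with or without one in control ESC, were compared with the others. Of 229 genes with NeuP Ring1B in the domain, 58 were called higher and 11 lower, and of 320 without it 61 and 22. That is 25.3% against 19.1% higher and 4.80% against 6.88% lower. In NeuP 34.9% and 30.6% of the first and 25.9% of the second in either replicate reached 1 FPKM. Genes share domains and libraries, so no test was made. Among 87 genes with at least 25% of the domain covered in NeuP, 20 were called higher and 6 lower. Olig2, which rose, had 49.9% of its domain covered and Otx2, which fell, 99.5%.

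In the Nup153 knockdown no domain gene was called, nor was any of the 13750 genes tested (0%, limma adjusted p under 0.05, the 2 hairpins as replicates against 1 control library). Without the filter on low values 4 domain genes were called higher and 6 lower, all but Dio3 below 1 FPKM in the ESC libraries. Over all 24016 genes of that fit, 55 were called higher and 175 lower. At an unadjusted p under 0.05, 14 domain genes were higher and 4 lower, where 4.49% and 1.43% of all genes tested were. By voom on recovered reads, 0 domain genes were called as well. A change of at least 2-fold on the log2(FPKM + 1) scale in both hairpins was seen in 0 domain genes upward and 1 downward, against 0.305% and 0.16% of genes tested. The median change of the 549 was 0.03, and 0.00 over all genes. In 266 domain genes both hairpins were above the control and in 87 both were below, as in 9531 and 5140 of all 24016 genes. After quantile scaling the median of the domain genes was 0.

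**Figure D5:**
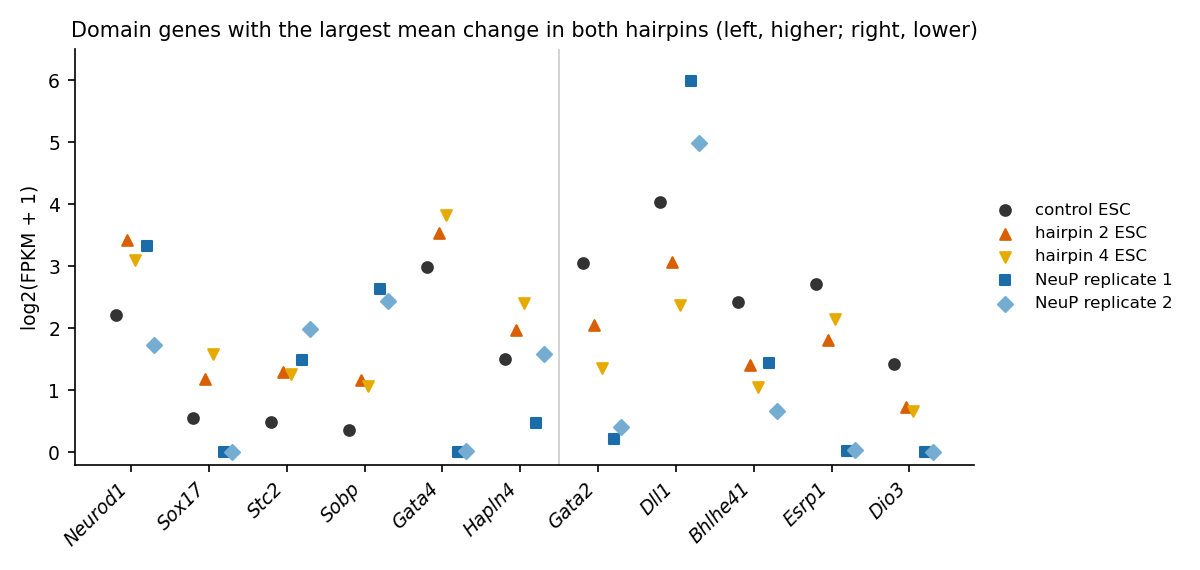
RNA level (y axis, log2(FPKM + 1)) of 11 of the domain genes with the largest mean change in the same direction in both hairpins, 1 point per library, with higher genes on the left and lower genes on the right. In each gene both hairpin points lie on the same side of the single control point, and the NeuP points do not follow one direction.

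The 6 largest differences upward were in Neurod1, Sox17, Stc2, Sobp, Gata4 and Hapln4, and none passed the adjusted test. Neurod1, a proneural bHLH gene, read 3.66 FPKM in the control and 9.68 and 7.55 in hairpins 2 and 4 (mean log2 difference 1.04, SE 0.75). Sox17, an endoderm factor, read 0.468 in the control and 1.26 and 1.99 in the hairpins (0.82, SE 0.22, unadjusted p = 0.0236 by limma). Gata4 was at 6.95, 10.6 and 13.1 in the same order. The summed FPKM of 13 endoderm markers, which include Sox17 and Gata4, was 78.7 in the control and 108 and 151 in the hairpins. Its part in these values was not tested. Stc2, a secreted glycoprotein gene, read 0.397, 1.44 and 1.41, Sobp 0.285, 1.24 and 1.11, and Hapln4 1.84, 2.94 and 4.28.

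Downward, Gata2 read 7.26 FPKM in the control, 3.15 in hairpin 2 and 1.57 in hairpin 4 (mean log2 difference -1.34, SE 0.35, unadjusted p = 0.0216 and adjusted p = 0.825 by limma). Dll1 read 15.4, 7.39 and 4.16 in the same order. Ring1B peaks covered 1490 bp of its domain in the control, 3782 bp in hairpin 2 and none in hairpin 4. Bhlhe41, a circadian bHLH gene, read 4.33, 1.64 and 1.07, and its 2 differences of -1.02 and -1.37 made it the 1 gene lower by 2-fold in both hairpins. Esrp1 read 5.53, 2.52 and 3.44, and Dio3, an imprinted deiodinase gene, 1.67, 0.654 and 0.589. With 1 control library, its own error enters each of these differences unseen.

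Genes whose domain overlapped Nup153 DamID numbered 53. Their median change was 0.06 in the knockdown, against 0.02 for the other 496 domain genes, and 0.31 in NeuP, against 0.00. In NeuP 34.0% of the 53 were called higher (18 genes) and 5.66% lower (3), against 20.4% and 6.05% of the other 496. The 18 include Pcdhga11, Pcdhgb6 and Pcdhgb7, which share their last exons and count as 1 signal, so 18 overstates the number of separate rises. In the knockdown 1 was higher at an unadjusted p under 0.05 and 0 were lower. The NeuP median differed between replicates, 0.74 in the first and 0.05 in the second, and both comparisons share the 1 control library.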

How the data were processed

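RNA, ChIP and DamID libraries of mouse ESC and NeuP were made and mapped by the authors. Per the submitters' processing notes, the tools named are CASAVA 1.8.2, STAR 2.2.0c, Bowtie2 2.1.0, HOMER 4.6 and edgeR, with build mm9. Per the file headers, the authors called ChIP peaks with HOMER (peak size 500 bp, minimum distance 1000 bp, 4-fold over an ESC IgG input, Poisson p-value threshold 0.001), 1 library per list. The deposited Nup153 and Oct4 DamID segments are 1 list per protein, and how the replicates and GFP were combined was not stated. The deposited RNA values are FPKM per gene, computed by the authors, and the low values were whole multiples of 1 read within 0.1 read in all 5 libraries, which gave the depths. No column of samples was left unused.

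From these files, overlaps were counted at 1 bp or more, anywhere or in the central 1 kb, with Wilson 95% intervals that cover counting error only. A gene belonged to a domain if its transcript start lay inside. RNA was tested with limma-trend 3.58.1 in R 4.3.3 on log2(FPKM + 1) for 13750 genes with at least 1 FPKM in at least 1 of 5 libraries. The 3 groups shared 1 estimate of the spread, and p-values were Benjamini-Hochberg adjusted over all genes tested, with 0.05 as the threshold. A fold change on this scale understates the change of low genes. The script was tested on simulated data. Python 3.11.15, pandas 2.3.3, scipy 1.17.1 and matplotlib 3.10.9 did the rest. Promoters and miRNAs came from RefSeq on GRCm38.p6.

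Named were the 10 widest domains, 3 on either side of the width threshold, the HOX clusters, the 10 largest rises and 10 largest falls called in NeuP, the 6 largest differences each way in both hairpins among genes of at least 1 FPKM in an ESC library, and the 6 highest genes in the control. Members of the gene lists were also named. Some genes that these rules choose are not reported here. Families were counted without noncoding genes, a choice made after seeing the data. Domains, gene lists and tests were chosen with earlier results of these data known. Alternatives varied the width, the overlap, the pseudocount, the filter, the scaling, the test (voom on recovered reads) and the libraries in the fit.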

Additional observations from a re-analysis of the deposited data

How the results depend on the processing

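The number of domains, 770, was 1395 at a minimum width of 2000 bp, 320 at 5000 bp and 420 when Ring1B was required in all 3 ESC lists. Overlap by control ESC Ring1B, 63.9%, was 39.2% in the central 1 kb, 47.4% at 2000 bp, 85.9% at 5000 bp and 3.38% when 50% of the domain had to be covered. For hairpin 2, 99.7% became 98.3, 98.5 and 92.9% (central 1 kb, 2000 bp, 50% covered), and for hairpin 4 74.5% became 51.9, 60.5, 90.0 and 10.4% in the order given for the control. NeuP Ring1B, 35.8%, became 18.2, 26.5, 56.3 and 4.29% in that order. Nup153 DamID, 8.96%, became 5.45% in the central 1 kb and 6.74% at 2000 bp. Oct4 ChIP in the control, 1.82%, became 0.13, 1.00 and 3.44% (central 1 kb, 2000 bp, 5000 bp), and in hairpin 2, 1.17%, became 0.13% in the central 1 kb. Bases covered at 2000 and 5000 bp were 15.7 and 22.4% for the control, 79.7 and 88.5% for hairpin 2 and 22.7 and 30.5% for hairpin 4, and for NeuP 13.8% at 5000 bp. At 5000 bp 278 genes started in a domain. Leaving out the mitochondrial and unplaced sequence, an alternative chosen after seeing the data, gave 768 domains and moved no share by more than its interval. Of the 119 genes called higher in NeuP, the count was 28 with only the control and NeuP libraries and 35 to 162 when 1 library was left out (35 without either hairpin library). The 33 called lower became 85 without the filter and 32 to 43 with 1 library left out. The median NeuP change, 0.00, was 0 at a pseudocount of 0.1, 0.000252 at 5, 1.55 among genes at 1 FPKM or more in a library, 0.0653 after quantile scaling, -0.14 on recovered reads, 0 with starts within 2 kb, and 0 to 0.000569 with 1 library left out. In the knockdown no domain gene was called except without the filter, with 4 higher and 6 lower (55 and 175 over all 24016 genes). The median knockdown difference, 0.03, was 0.164, 0.00575, 0.105, 0, 0.423 and 0.0327 in the order just given for NeuP. The NeuP differences without the first and without the second NeuP replicate were -0.17 and 1.06 for Dll4, -0.49 and 1.11 for Neurod1, -0.0672 and 0.782 for Pax9, and 0.0698 and -1.04 for Hapln4. These changed sign without the first, as did that of Gnas in the knockdown after quantile scaling (0.11). None of these 5 passed the test there. Of 65 genes called among those named or listed, 34 were called without either hairpin library and 31 were not. The cause of these changes was not tested. No paired analysis was possible because the control ESC group has 1 RNA library, so the groups compared share fewer than 2 replicate numbers. Control ESC Ring1B, at 4.99 M tags, is the shallowest list and limits what can be said of domains without it.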
